A study of Mus musculus with 2 samples.

Results

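The calmodulin genes Calm2 and Calm3 and the 4 genes of CaM kinase II, Camk2a, Camk2b, Camk2d and Camk2g, are described in the adult mouse heart. They were taken by gene symbol and are 6 of the 55536 mouse genes in the deposited gene tables. The data come from total RNA sequencing of heart tissue of 2 female B6CASTF1/J mice aged 8 to 10 months. These mice have a C57BL/6J and a CAST/EiJ parent (F1 hybrids). The animals carry no engineered allele or treatment in the labels and form 1 group. Replicate 1 is animal 1 of the labels and replicate 2 is animal 3. Values are means ± SD over both animals (n = 2) unless an animal is named, and no p-value is given, since with n = 2 the smallest two-sided p of an exact sign-flip test is 0.5.

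Calmodulin is a small protein that binds calcium and then switches on other proteins. Mammals have several calmodulin genes that code for the same protein. CaM kinase II is a holoenzyme of many subunits held together by an association domain at the end of each subunit. Between that domain and the kinase domain lies a calmodulin-binding segment and a linker of variable length, which differs between genes and splice forms. In cardiomyocytes the kinase phosphorylates calcium channels, the ryanodine receptor and phospholamban. Camk2d is known as the main cardiac gene, Camk2a and Camk2b as the main genes of the brain, and Camk2g is widely expressed.

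The 2 calmodulin genes differ in sequence although their protein is the same, which is why their RNA can be counted apart. The first 300 bases of the coding sequences are printed here and come from the GENCODE M21 transcripts (mm10), 5′ to 3′, with capitals at the bases that differ between both. The whole coding sequence of Calm2-201 lies on the minus strand within chr17:87434027-87446795 and that of Calm3-201 on the minus strand within chr7:16916948-16923843, each over several exons.
Calm2-201: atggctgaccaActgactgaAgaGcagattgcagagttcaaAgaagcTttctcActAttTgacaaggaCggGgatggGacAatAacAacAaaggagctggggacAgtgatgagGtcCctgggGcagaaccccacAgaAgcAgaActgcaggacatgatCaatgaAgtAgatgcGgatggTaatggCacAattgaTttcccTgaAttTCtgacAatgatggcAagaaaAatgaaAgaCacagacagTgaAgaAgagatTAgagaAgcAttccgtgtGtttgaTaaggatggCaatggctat
Calm3-201: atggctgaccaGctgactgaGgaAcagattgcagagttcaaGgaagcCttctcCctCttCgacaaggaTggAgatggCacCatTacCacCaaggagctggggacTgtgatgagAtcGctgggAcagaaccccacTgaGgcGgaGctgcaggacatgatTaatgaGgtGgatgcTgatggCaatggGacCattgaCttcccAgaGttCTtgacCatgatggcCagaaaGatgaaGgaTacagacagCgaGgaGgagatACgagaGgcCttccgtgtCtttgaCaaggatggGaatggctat
Over the whole coding sequence of 450 bases, 78 differed (82.7% identity), and 74 of these lay at the third position of a codon. The differences touched 76 of the codons, and 0 of the 149 residues changed. The longest identical run was 17 bases, so that 0 of the 420 stretches of 31 bases in each coding sequence were shared. Over whole transcripts, Calm2 shared 18.1% of its 31-base stretches with 3 other genes and Calm3 shared 4.99% with 1, all of them processed pseudogenes. The pseudogenes of Calm2 (Gm7308, Gm14480 and Gm15720) held at most 4.02 counts in a library and that of Calm3 (Gm5881) held 0, so few reads were assigned to them.

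Libraries held 42223411 and 40553237 expected counts. An expected count is an estimate of the reads a gene received, and TPM (transcripts per 1000000) divides it by transcript length. All levels compared between genes here are TPM, from the gene tables unless the FASTQ-derived transcript table is named. That table is a separate quantification of the same libraries, so it is no replicate. Cardiomyocyte markers fitted the tissue label, with 6 of 6 at 1 TPM or more in both animals and sums of 31600 and 27503 TPM. Markers of neurons summed to 4.72 and 5.09 TPM, of skeletal muscle to 149 and 119 TPM, of smooth muscle to 92.0 and 84.6 TPM, of endothelium to 171 and 134 TPM, of fibroblasts to 182 and 153 TPM, and of Schwann cells to 4.32 and 3.22 TPM. Markers of red blood cells summed to 3478 and 2255 TPM. No listed marker was at 0 in both animals. In RNA of heart tissue, fewer cells of a type and less RNA per cell cannot be told apart.

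All 6 genes reached 1 TPM in both animals, against 20.9% of all mouse genes and 48.7% of protein-coding genes. Calm3, Calm2 and Camk2d formed the upper level of about the same size, Camk2g and Camk2a a middle level, and Camk2b stood lowest.

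Calm3 (chr7:16915379-16924114, minus strand) stood at 70.8 TPM in replicate 1 and 56.2 TPM in replicate 2, a mean of 63.5 ± 10.3 TPM from 4781 and 3925 counts. Its rank by mean level was 806 among 22028 protein-coding genes. Calm2 (chr17:87433412-87446935, minus strand) stood at 54.9 and 42.6 TPM, a mean of 48.7 ± 8.69 TPM. Both were lower in replicate 2. Calm3 exceeded Calm2 in each animal, by 0.37 and 0.40 on the log2 scale (0.38 ± 0.02, 1.30-fold), and the deposited credibility intervals of both genes did not overlap within either animal. In the FASTQ-derived table the difference was 0.58 ± 0.05 on the log2 scale. Calm3 made 56.6% ± 0.405 of the summed TPM of Calm2 and Calm3.

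Camk2d (chr3:126596302-126846326, plus strand), the kinase gene that leads in heart, stood at 52.0 and 43.6 TPM, a mean of 47.8 ± 5.87 TPM from 5815 and 4989 counts. Calm2 and Camk2d could not be ordered in the gene table: their log2 ratio was 0.08 in replicate 1 and -0.04 in replicate 2, with overlapping intervals in both animals. Camk2d stood above Calm2 in both animals in the FASTQ-derived table, with log2 ratios of -0.22 and -0.27. Camk2g (chr14:20734875-20794088, minus strand) stood at 17.3 and 18.1 TPM, a mean of 17.7 ± 0.552 TPM. Camk2a (chr18:60925618-60988152, plus strand) stood at 19.4 and 15.9 TPM, a mean of 17.7 ± 2.52 TPM. The order of these neighbours differed between the animals, with Camk2a above Camk2g by 0.17 in replicate 1 and below it by a log2 ratio of -0.19 in replicate 2, and with overlapping intervals in both. Camk2b (chr11:5969644-6066362, minus strand) stood at 2.38 and 2.55 TPM, a mean of 2.47 ± 0.120 TPM from only 236 and 268 counts. Its rank was 9126 among protein-coding genes, against 1052 for Camk2d. The plain TPM of Camk2b in replicate 2 lay just below its own deposited interval of 2.58 to 3.68 TPM.

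**Figure D1:**
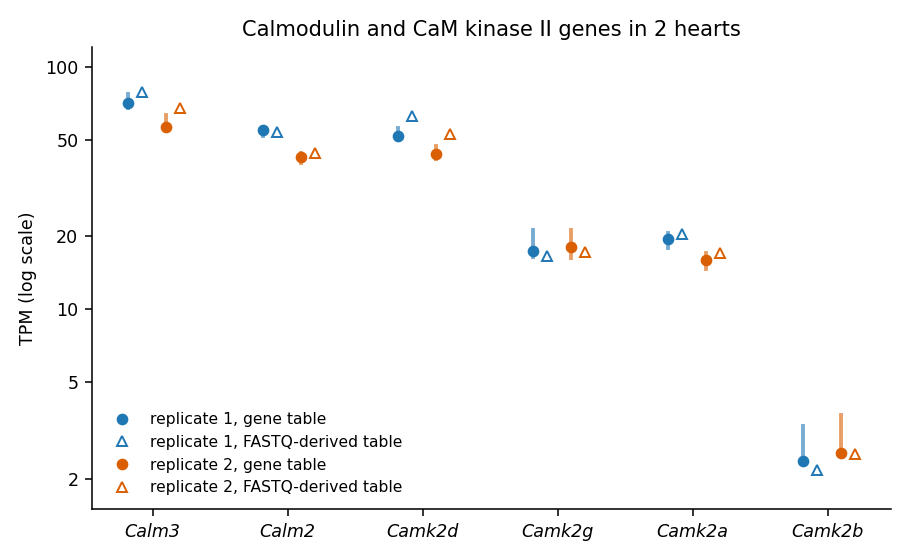
Level of each gene in TPM (log axis) in replicate 1 (blue) and replicate 2 (orange). Circles are the gene table, vertical lines the deposited credibility intervals and open triangles the FASTQ-derived table; Calm3, Calm2 and Camk2d sit between 42.6 and 70.8 TPM in the gene table, and Camk2b at 2.38 and 2.55 TPM.

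Camk2d exceeded Camk2a by 1.44 ± 0.03 on the log2 scale (2.71-fold) and Camk2g by 1.43 ± 0.22 (2.69-fold). The Camk2g level exceeded that of Camk2b by 2.84 ± 0.03 on the log2 scale (7.17-fold), and Camk2d exceeded Camk2b by 4.27 ± 0.25 (19.3-fold). In each of these 4 comparisons the intervals of the genes did not overlap in either animal. The 4 kinase genes summed to 91.1 and 80.2 TPM. Camk2d made 57.0% of this sum in replicate 1 and 54.4% in replicate 2 (55.7% ± 1.83). Camk2g made 20.8% ± 2.52, Camk2a 20.6% ± 1.09 and Camk2b 2.90% ± 0.401.

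The animals were compared next. In the deposited TPM, 4 of 6 members were lower in replicate 2, as were 79.3% of the 11876 genes compared. Among those genes replicate 2 over replicate 1 had a median log2 ratio of -0.18 (SD of the ratios 0.40), and 73.6% of them lay within 1.2-fold of it. Relative to that median, Calm2 had a log2 ratio of -0.18, Calm3 of -0.15, Camk2a of -0.11, Camk2d of -0.07, Camk2g of 0.25 and Camk2b of 0.28. For Camk2g the direction turned with expected counts in place of TPM, to -0.06, from 1340 and 1133 counts. A difference of 2-fold relative to the median was seen in 0 of 6 members and in 1.41% of the genes compared, so that this count sets the members apart in no way. Credibility intervals of the 2 animals were apart in 4 of 6 members as deposited (Calm2, Calm3, Camk2a and Camk2d) and in 28% of genes. After replicate 2 was divided by the median ratio, they were apart in 1 of 6 (Calm2) and in 12.8% of genes. These intervals cover the assignment and counting of reads and not the variation between animals. Sums of the red blood cell markers differed between the animals as given above, and their part in these ratios was not tested. Between the 2 kinds of table, 0 of 6 members differed by 2-fold in both animals, against 5.21% of 12374 genes.

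A gene total does not say how much of its RNA codes for a kinase, since each of these genes also has short, intron-retaining or truncated transcripts. For this reason the TPM of each gene was split over its annotated transcripts. A transcript was counted as full-length when it had a complete coding sequence of 450 codons or more. Among full-length transcripts Camk2d made 67.2% and 66.9% of the TPM (67.1% ± 0.248), Camk2g 16.6% ± 1.15, Camk2a 12.7% ± 0.306 and Camk2b 3.70% ± 1.09. Camk2a thus had a smaller share among full-length transcripts than among all transcripts, in both animals. In the FASTQ-derived table the shares were 69.5% ± 0.115 for Camk2d, 16.1% ± 1.07 for Camk2g, 10.3% ± 0.111 for Camk2a and 4.09% ± 0.843 for Camk2b. The main proteins are alike in sequence: 88.2% of aligned residues were identical between Camk2d and Camk2g, 86.8% between Camk2a and Camk2d, and 90.1% between Camk2b and Camk2g. Of exact stretches of 31 bases in the RNAs, Camk2a shared 0.79% with any other gene, Camk2b 0.349%, Camk2d 0.118% and Camk2g 0%.

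**Figure D2:**
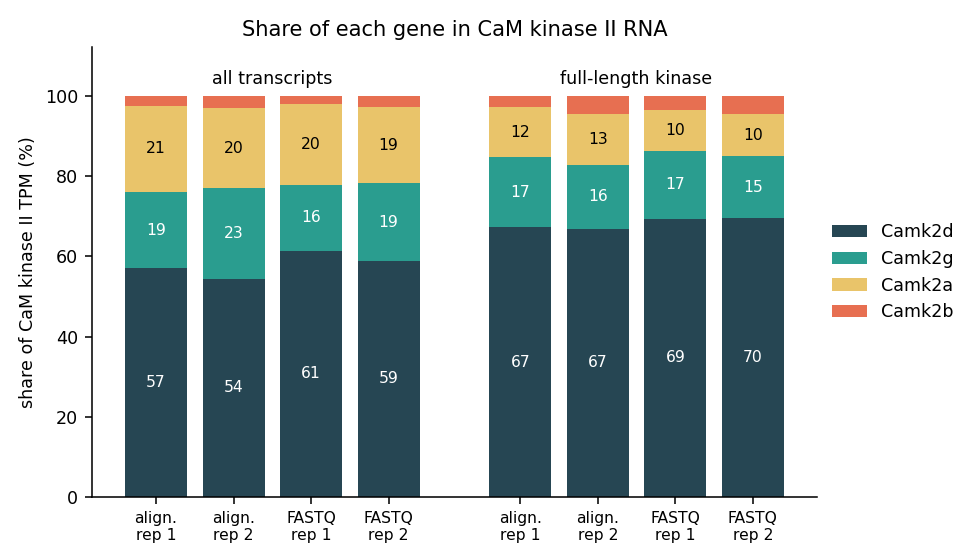
Share of each gene in the summed TPM of the 4 CaM kinase II genes (percent, stacked bars), for all transcripts (left) and for full-length kinase transcripts (right), in each animal and each table. Camk2d makes 54.4% to 61.4% of all and 66.9% to 69.6% of full-length TPM, and Camk2a is smaller on the right.

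Most of the Camk2a TPM in the heart belonged to transcripts that cannot code for a kinase. Camk2a-202 and Camk2a-204 begin inside the gene, downstream of 12 coding exons of the full-length form, and code for 189 and 200 codons. In Camk2a-202, 491 of its 567 coding bases are coding bases of the full-length Camk2a-203, so that its product holds the association domain and no kinase domain. A protein of this type, αKAP, is known from skeletal muscle, where it anchors the kinase to the sarcoplasmic reticulum. Together these 2 transcripts held 12.0 TPM in replicate 1 and 9.25 TPM in replicate 2, that is 61.5% and 58.2% of the gene (59.9% ± 2.28). The FASTQ-derived table gave 68.2% ± 1.49. Full-length Camk2a-203, of 478 codons, held 7.44 TPM (interval 6.80 to 7.81) and 6.63 TPM (6.04 to 6.95), which is 38.3% and 41.8% of the gene.

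The split between the 2 short forms differed between the tables, although by alignment their intervals did not overlap within either animal. Camk2a-204 stood at 7.66 TPM (6.23 to 8.91) in replicate 1 and 7.77 TPM (6.46 to 8.87) in replicate 2. Camk2a-202 stood at 4.29 TPM (2.88 to 5.41) and 1.48 TPM (0.471 to 2.41), with intervals that did not overlap between the animals. In the FASTQ-derived table Camk2a-202 held 34.8% and 26.6% of the gene and Camk2a-204 held 34.5% and 40.5%. The short transcripts are 1734 and 979 bases long and the full-length one 4970 bases, so that the short forms received only 24.8% of the expected counts of the gene. Of their 1812 distinct stretches of 31 bases, 368 are in no other class of Camk2a transcripts, against 2910 of 4985 for the full-length class. Of the markers of skeletal muscle, a tissue in which αKAP is known, 7 of 9 were at 1 TPM or more. Most of their summed TPM was Acta1, which the heart also makes, at 129 and 98.6 TPM. Mylpf stood at 5.20 and 5.08 TPM, Tnnt3 at 3.60 and 3.73 TPM and Atp2a1 at 3.47 and 3.70 TPM. Of the fast myosins, Myh4 stood at 2.76 and 3.41 TPM, while Myh1 and Myh2 lay between 0.13 and 0.23 TPM. The part of skeletal muscle RNA in the Camk2a levels was not tested. Of the markers of neurons, which are rich in full-length Camk2a, 2 of 8 were at 1 TPM or more, Stmn2 at 2.02 and 2.19 TPM and Uchl1 at 2.02 and 2.39 TPM. The other 6 stood at 0.18 TPM or less, and the part of neuronal RNA in the Camk2a levels was not tested.

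**Figure D3:**
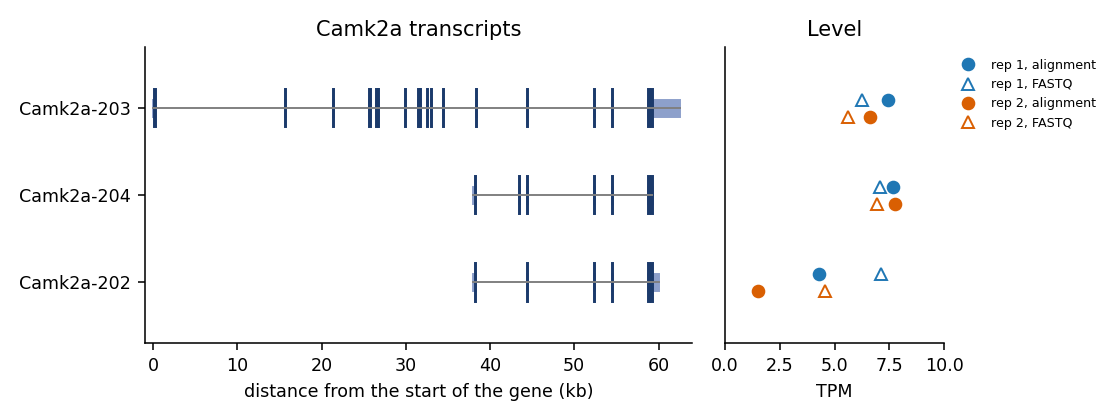
Left, exons of 3 Camk2a transcripts against the distance from the start of the gene (kb), with coding parts tall and dark. Right, their TPM in both animals (blue, replicate 1; orange, replicate 2) in the alignment-derived (circles) and FASTQ-derived (triangles) tables; Camk2a-204 stands at 7.66 and 7.77 TPM beside 7.44 and 6.63 TPM of full-length Camk2a-203.

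The Camk2d linker is known to influence where this kinase goes in cardiomyocytes. It is built from 3 alternative exons, of 33, 60 and 42 bases, at chr3:126802937-126802969, chr3:126805857-126805916 and chr3:126808208-126808249 (mm10, plus strand). The 4 linkers are shown from the GENCODE M21 transcripts because the main result on Camk2d is which of them the heart used. Capitals mark the alternative exons and small letters the 15 bases of the constant exon on either side, within chr3:126801747-126810653.
Camk2d-202: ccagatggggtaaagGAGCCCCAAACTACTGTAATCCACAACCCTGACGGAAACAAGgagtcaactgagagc
Camk2d-206: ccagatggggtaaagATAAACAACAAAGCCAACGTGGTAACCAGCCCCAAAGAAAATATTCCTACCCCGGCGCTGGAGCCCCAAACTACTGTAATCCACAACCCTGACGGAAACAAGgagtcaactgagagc
Camk2d-205: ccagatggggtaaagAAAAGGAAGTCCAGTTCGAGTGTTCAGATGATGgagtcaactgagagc
Camk2d-226: ccagatggggtaaaggagtcaactgagagc
The form with the 42-base exon is known as δ9, the form with the 60-base and 42-base exons as δA, the form with the 33-base exon as δB, and the form with none as δC. The 33-base exon of δB carries a nuclear localisation signal, and δC is known as cytosolic.

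In both animals and in both tables the 42-base exon was in most full-length Camk2d RNA. It was in 78.9% and 76.3% of the full-length TPM by alignment, and the FASTQ-derived table had it in 86.2% and 88.2%. Camk2d-202, with the 42-base exon alone, was the most abundant transcript of the gene in every library and table. It stood at 25.2 TPM (interval 22.1 to 25.5) and 20.6 TPM (17.8 to 20.8), that is 48.6% and 47.3% of the gene. Among full-length transcripts, the linker with the 42-base exon alone held 62.4% and 59.9% by alignment (61.2% ± 1.74).

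The share of every linker depended on the table, also that of the 42-base exon alone, at 61.2% ± 1.74 by alignment. The linker with the 60-base and 42-base exons held 16.4% ± 0.0533 of full-length TPM by alignment but 44.6% ± 0.425 in the FASTQ-derived table, where it was level with the 42-base form at 42.6% ± 1.88. The linker with none of the exons held 19.4% ± 2.90 and 3.42% ± 0.356. The nuclear δB-type linker, with the 33-base exon, was the lowest in the first table at 3.05% ± 1.11, and held 9.36% ± 1.81 in the other. The animals were close to each other within each table, and the difference lay between the tables. Few stretches of 31 bases were found in the full-length transcripts of a linker and in no other annotated Camk2d transcript. They numbered 25 for the 42-base exon alone, 68 for the 60-base and 42-base exons, 26 for the 33-base exon and 31 for none. Stretches also held by noncoding transcripts or coding fragments were left out. These counts can therefore understate how well sequence separates the linkers.

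**Figure D4:**
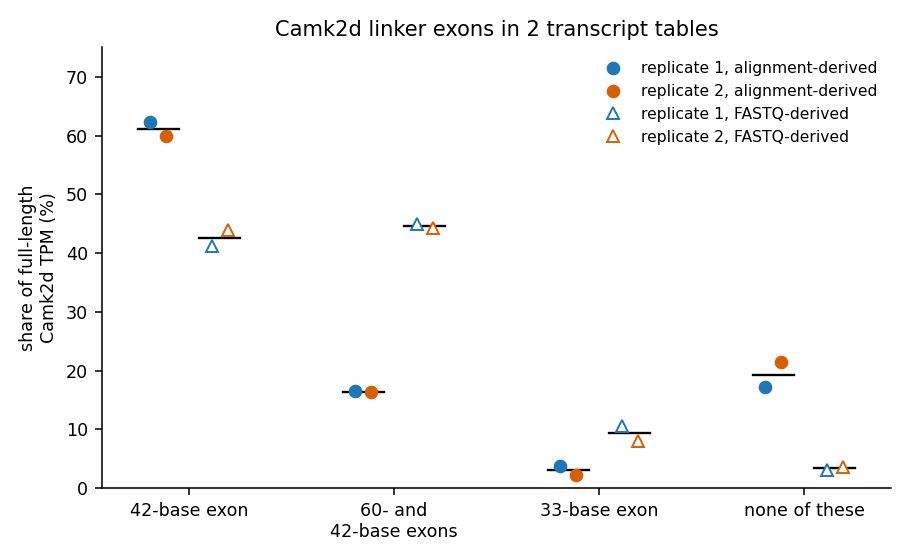
Share of full-length Camk2d TPM (percent) held by transcripts with each linker, in replicate 1 (blue) and replicate 2 (orange), with circles for the alignment-derived table, triangles for the FASTQ-derived table and a bar at each mean. The 42-base form is at 61.2% and 42.6% in the tables, and the form with the 60-base and 42-base exons at 16.4% and 44.6%.

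Single Camk2d transcripts show where the tables part. Camk2d-226, without a linker exon and of 499 codons, held 13.5% and 16.9% of gene TPM by alignment but 2.16% and 2.60% in the other table. Camk2d-206, with the 60-base and 42-base exons and of 512 codons, held 0.924% and 0% against 12.7% and 13.2%. Camk2d-221, of 533 codons, held 12.4% ± 0.711 against 18.1% ± 0.179, and is the only named transcript of the 60-base class that both tables placed above 10%. Camk2d-226 is 5524 bases long and Camk2d-221 only 2217, so that they also differ in their ends. Full-length transcripts together held 78.4% ± 0.703 of Camk2d TPM (69.6% ± 1.85 in the FASTQ-derived table). Most of the rest was annotated as intron-retaining, processed or subject to nonsense-mediated decay, at 19.8% ± 1.54 and 30.0% ± 1.80. By alignment its main transcript was the intron-retaining Camk2d-218 of 591 bases, at 11.3% and 11.0% of the gene, with a wide interval of 2.62 to 8.21 TPM in replicate 1. In the FASTQ-derived table Camk2d-218 held 11.9% and 10.7%, beside the intron-retaining Camk2d-223 at 6.83% and 11.4%, which held 0% by alignment.

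Camk2d varies at further places. A pair of 73-base exons, 916 bases apart, stand in for each other in the kinase domain, and the pair is shown because both look alike but differ at 23 bases, in capitals (68.5% identity). They lie at chr3:126770785-126770857 and chr3:126771774-126771846, plus strand.
Camk2d upstream 73-base exon: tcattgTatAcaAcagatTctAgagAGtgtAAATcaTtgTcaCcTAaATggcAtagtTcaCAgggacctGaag
Camk2d downstream 73-base exon: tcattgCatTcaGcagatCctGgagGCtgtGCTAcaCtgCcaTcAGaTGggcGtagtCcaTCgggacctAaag
Of the 25 residues compared between them, 5 differed. The upstream exon was in 84.7% and 83.6% of full-length TPM, and the downstream exon in 15.3% and 16.4% (15.8% ± 0.765). The FASTQ-derived table placed the downstream exon at 26.0% ± 0.435. Among full-length transcripts, Camk2d-203 and Camk2d-221 hold the downstream exon. Only 21 stretches of 31 bases are found in these and in no other annotated Camk2d transcript. Stretches also held by noncoding transcripts or coding fragments were left out of this count.

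The end of the Camk2d protein also has 2 forms. A 64-base coding stretch at chr3:126841485-126841548, in capitals before the stop codon, codes for a C-terminal tail that the other form lacks.
Camk2d C-terminal 64-base exon: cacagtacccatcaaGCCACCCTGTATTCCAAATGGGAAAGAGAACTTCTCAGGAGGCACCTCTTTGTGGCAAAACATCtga
Transcripts with this tail held 32.6% and 37.8% of full-length TPM (35.2% ± 3.69), and 29.5% ± 0.0786 in the FASTQ-derived table. The tail-less form was thus the larger in both animals and both tables. The tail occurred with the linker of no exon in Camk2d-226 and with the 60-base and 42-base exons in Camk2d-221, and was not in Camk2d-202.

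Camk2g was less even between the animals in its transcripts than in its total. Its main form, Camk2g-203 of 495 codons, held 5.18 and 4.86 TPM, that is 29.9% and 26.8% of the gene (28.3% ± 2.18), and 26.0% ± 2.00 in the FASTQ-derived table. Full-length transcripts held 60.4% in replicate 1 and 44.8% in replicate 2 (52.6% ± 11.1), with 62.6% and 47.9% in the FASTQ-derived table. The short noncoding Camk2g-215, of 535 bases, held 7.50% in replicate 1 and 18.8% in replicate 2. Its intervals of 0.0354 to 3.03 TPM and 1.47 to 4.94 TPM overlapped.

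Camk2g-201 and Camk2g-202, of 529 and 518 codons, carry longer linkers and held 12.9% and 9.65%, and 12.5% and 8.33%. A 69-base linker exon at chr14:20745792-20745860 was in 50.5% and 40.1% of full-length Camk2g TPM, and a 33-base exon at chr14:20747819-20747851 in 29.8% and 21.6%. In the FASTQ-derived table these exons were in 56.2% and 48.7%, and in 46.4% and 41.7%. Both exons were lower in replicate 2 in both tables, but no full-length transcript that holds them had intervals apart between the animals. Camk2g-217, of 565 codons, holds both exons and had 55.3 counts in replicate 1 and 0 in replicate 2. Its intervals were 0.114 to 1.29 and 9.41e-06 to 0.583 TPM, and the FASTQ-derived table had it at 1.42 and 0.000774 TPM. The exon shares without Camk2g-217 were not computed. Among the short transcripts, Camk2g-212 of 673 bases held 11.2% and 9.38%, and Camk2g-208 of 452 bases held 11.0% and 11.3% but 0% in the FASTQ-derived table.

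Camk2b had too few reads for a firm split. Camk2b-209, of 542 codons, was its largest transcript by plain TPM in both animals, at 0.62 TPM (interval 0.0205 to 0.757) and 1.18 TPM (0.000191 to 1.19). It held 26.2% and 46.1% of the gene, and 35.4% and 44.2% in the FASTQ-derived table, but a mean of only 17.7% by the posterior mean TPM. By that estimate Camk2b-215, at 0.65 TPM, exceeded Camk2b-209, at 0.39 TPM, in replicate 1. Camk2b-205 of 589 codons held 15.6% and 22.3%, Camk2b-202 of 666 codons held 5.06% and 16.4%, and Camk2b-204 of 545 codons held 11.4% and 3.52%. The noncoding Camk2b-215 held 25.3% and 9.77%, but 0.00348% and 0.221% in the FASTQ-derived table. Full-length forms together held 82.1% ± 11.0 and 99.1% ± 0.466 in the 2 tables.

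The calmodulin genes were simpler. Calm2-201, which codes for the 149 residues, held 96.2% and 99.5% of Calm2 TPM (97.9% ± 2.29), and 98.3% ± 1.71 in the FASTQ-derived table. Calm3-201 held 89.0% and 92.1% of Calm3 TPM (90.6% ± 2.18), and 78.4% ± 1.96 in the FASTQ-derived table. The difference went with short transcripts. Calm3-203, a 490-base fragment with 64 codons, held 0.184% and 0.374% in the first table and 15.4% and 15.1% in the other. Calm3-202, annotated as a target of nonsense-mediated decay, held 9.93% and 7.51% against a mean of 0.0787% in the FASTQ-derived table. The level of Calm3-201 itself was close in the tables, at 57.4 ± 7.93 and 57.3 ± 7.48 TPM.

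Around these genes, 73 other genes of the calmodulin pathway in 8 lists were read the same way. At 1 TPM or more in both animals were 55 of the 73, against 48.7% of all protein-coding genes, the share to hold beside each list below. Of the 57 with enough reads to compare, 0 were 2-fold higher and 0 were 2-fold lower in replicate 2, against 1.41% of all genes compared in either direction. The median protein-coding gene stood at 1.00 TPM in replicate 1 and 0.92 TPM in replicate 2.

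Of the direct regulators, the CaM kinase II inhibitor gene Camk2n1 stood at 4.14 and 3.81 TPM and Camk2n2 at 0.50 and 0.35 TPM. Both were far under the 91.1 and 80.2 TPM of the summed kinase genes. Among phosphatases that reverse CaM kinase action, 7 of 7 genes were at 1 TPM or more (median 18.8 ± 2.04 TPM). The catalytic subunits of protein phosphatase 1 led, with Ppp1cb at 139 ± 11.3, Ppp1ca at 107 ± 10.3 and Ppp1cc at 35.5 ± 1.24 TPM. The dedicated CaM kinase phosphatases were lowest, Ppm1f at 9.46 ± 3.20 and Ppm1e at 2.11 ± 0.410 TPM.

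Of calmodulin-dependent kinases outside CaM kinase II, 8 of 14 were at 1 TPM or more (median 3.00 ± 0.0318 TPM). Mylk3, the cardiac myosin light chain kinase, stood at 198 and 162 TPM, above each member described here. Camk1, a kinase of the cascade under CaM kinase kinase, stood at 22.7 ± 2.76 TPM, and Eef2k, which slows translation elongation, at 9.89 ± 2.02 TPM. The lowest were Camk1g at 0.120 ± 0.0566 and Camk4, known from brain and T cells, at 0.060 ± 0.0141 TPM.

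Calcineurin, the calmodulin-activated phosphatase, had 9 of 10 genes of its list at 1 TPM or more (median 17.6 ± 2.78 TPM). Its Z-disc partner Myoz2 stood at 586 ± 44.4 TPM, the regulator Rcan2 at 149 ± 17.2 TPM and the catalytic subunit Ppp3cb at 23.5 ± 2.91 TPM. Rcan3 stood at 3.65 ± 0.148 TPM, and Ppp3r2, known as a testis subunit, had 0 counts in both libraries. The list of calmodulin buffers, calmodulin-like proteins and related genes had 4 of 9 at 1 TPM or more (median 0.70 ± 0.113 TPM). This count is near the 48.7% of protein-coding genes and does not set the list apart. S100a1, a calcium sensor of muscle, stood at 384 ± 13.9 TPM, Pcp4l1 at 94.6 ± 8.37 TPM and Calu, a calcium-binding protein of the endoplasmic reticulum, at 80.1 ± 9.70 TPM. Gap43, a calmodulin-binding protein of neurons, stood at 0.230 ± 0.0566 TPM and Calml3 had 0 counts in both. A count of 0 allows up to 3 counts, or 0.0711 and 0.0740 counts per 1000000, in these libraries, for counting error only.

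Other calmodulin-binding enzymes had 8 of 13 genes at 1 TPM or more (median 2.14 ± 0.212 TPM). The phosphodiesterase Pde1c stood at 25.9 ± 1.74 TPM, the plasma membrane calcium pump Atp2b1 at 21.9 ± 2.49 TPM and the inositol trisphosphate kinase Itpkb at 18.3 ± 3.57 TPM. Itpka at 0.225 ± 0.148 TPM and the nitric oxide synthase Nos1 at 0.165 ± 0.0354 TPM were lowest. Known targets of CaM kinase II in cardiomyocytes had 12 of 12 genes at 1 TPM or more (median 83.9 ± 6.91 TPM). They ranged from Atp2a2, the calcium pump of the sarcoplasmic reticulum, at 4933 and 4207 TPM, Pln, its inhibitor phospholamban, at 3192 and 2815 TPM and Ttn, titin, at 1507 and 1258 TPM, down to the histone deacetylase Hdac4 at 22.3 ± 4.64 TPM and the potassium channel Kcnd3 at 3.80 ± 0.0990 TPM.

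Splicing regulators known to act on Camk2d or other cardiac transcripts were all present, 6 of 6 at 1 TPM or more (medians 34.9 and 31.2 TPM). Rbm20, whose known targets include Camk2d and titin, stood at 94.2 and 92.7 TPM, and Rbm24 at 76.2 and 56.3 TPM. Srsf1 stood at 33.1 ± 6.26 TPM, Rbfox2 at 32.2 and 33.8 TPM, Rbfox1 at 21.5 ± 3.25 and Ptbp1 at 19.7 ± 2.21 TPM. With 2 libraries of 1 condition, no relation between these levels and the linker shares can be measured.

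**Figure D5:**
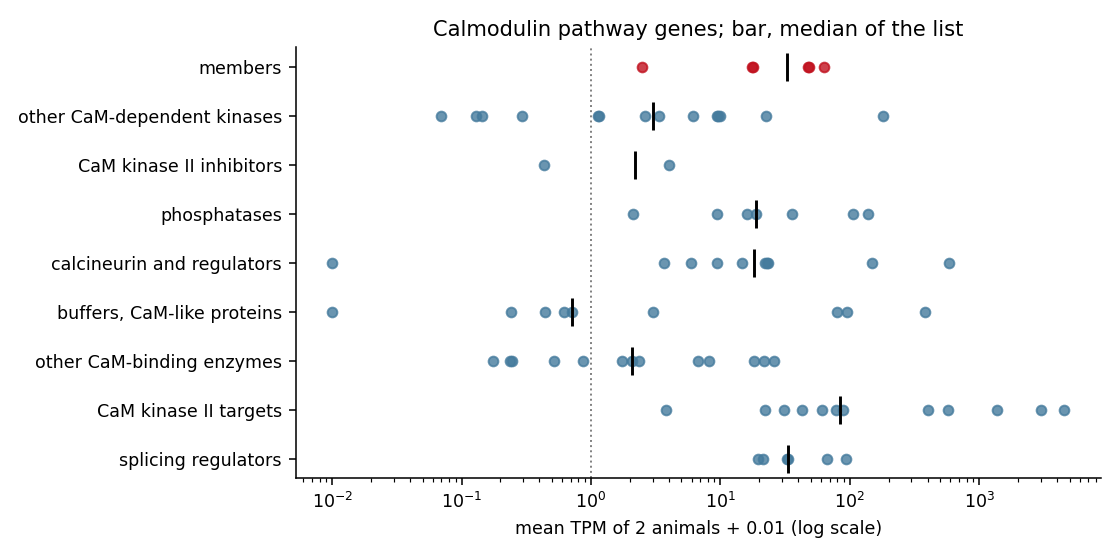
Mean TPM over both animals plus 0.01 (log axis) of the 6 members (red) and of the genes of 8 pathway lists (blue), with a bar at the median of each list and a dotted line at 1 TPM. The targets of CaM kinase II have the highest list median (83.9 TPM), and the points at the left edge are Ppp3r2 and Calml3 with 0 counts.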

How the data were processed

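Heart total RNA of 2 animals was analysed from 3 deposited tables a library. Per the labels, a directional kit was used on 300 ng of RNA, with ERCC spike-ins added. The gene table and its matching transcript table list expected counts, TPM, isoform percent and credibility bounds, per the file headers. The bounds were treated as a deposited signal; their level is not stated. The other transcript table, made from FASTQ files, has, per the file headers, estimated counts and TPM. The deposited notes name mm10 and GENCODE M21. The tools behind the tables were not given in the sources used here. Since mm10 is the C57BL/6J genome, CAST/EiJ reads can be lost in assignment, and alleles were not separated.

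Transcript shares were computed from TPM. Ratios between genes used log2(TPM + 0.01). Ratios between animals used log2(TPM + 0.1), which understates differences of low genes, less their median over genes that reached a mean of 1 TPM and 20 counts in all. Expected counts were not rounded, since no count test was run. Depth was 42223411 and 40553237 expected counts; intervals and floors cover counting error and read assignment only. Animal numbers differ between the libraries and 1 donor identifier is shared, read here as the strain, so n = 2 follows the animal numbers. All 55536 mouse gene identifiers matched the annotation, from which the printed sequences, exons and coding lengths were read.

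Both animals form 1 group, so no test between groups was made. Named were all members, their transcripts with 10% or more of gene TPM in either table, all genes of lists of 6 or fewer, and the 3 highest and 2 lowest genes of longer lists. Other names (pseudogenes, marker genes, and the transcripts Calm3-202, Camk2d-203, Camk2d-205, Camk2d-223 and Camk2g-217) were picked with their values in view. The members and lists were chosen with earlier results of these data known. Alternatives were the other table, the deposited posterior mean TPM, expected counts, TPM rescaled over nuclear protein-coding genes, shares of protein-coding transcripts only, no centring, other pseudocounts, thresholds and filters, and each animal alone. Computation used Python 3.11.15, pandas 2.3.3 and numpy 2.4.6, and the ratio between animals was tested on simulated data.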

Additional observations from a re-analysis of the deposited data

How the results depend on the processing

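Of 206 alternatives over 45 results, 150 stayed within their limit and 56 moved. The limit was the SD between the animals, or 1.5 times for counts. For ratios between the animals it was the wider SD of the ratios over all compared genes (0.40). With n = 2, either animal alone always lies within the SD between the animals, so those alternatives could not move. TPM and shares cannot change sign, so only log2 ratios could, and no called log2 ratio changed sign. Uncalled values did in 3 cases: Camk2a over Camk2g, with a log2 ratio of -0.01, was 0.15 in the FASTQ-derived table and 0.17 without replicate 2, and Camk2g in replicate 2 over replicate 1, at 0.25, was -0.06 with expected counts. TPM rescaled to 1000000 over nuclear protein-coding genes were higher for all 6 members (Calm3 178, Calm2 137, Camk2d 134, Camk2g 50.1, Camk2a 49.6 and Camk2b 6.98). With the FASTQ-derived table, the ratio (log2) of Calm3 over Calm2 was 0.58, of Camk2d over Camk2a 1.62 and of Camk2d over Camk2g 1.76. The Camk2d share of kinase TPM was 60.1% and the Calm3 share of both calmodulin genes 59.98%. The association-domain-only share of Camk2a was 68.2%. The Camk2d linker shares were 42.6% (42-base exon), 44.6% (60-base and 42-base exons), 9.36% (33-base exon) and 3.42% (none), with 29.5% for the 64-base tail and 26.0% for the downstream 73-base exon. Among full-length kinase TPM, Camk2d held 69.5% and Camk2a 10.3%.

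With the posterior mean TPM, the log2 ratio of Calm3 over Calm2 was 0.44, of Camk2d over Camk2a 1.47 and of Camk2g over Camk2b 2.66. The Calm3 share was 57.6%, the share of the linker with the 60-base and 42-base exons 17.1%, of the downstream 73-base exon 14.4%, and of Camk2d among full-length kinase TPM 66.5%. With expected counts, which grow with transcript length, the Camk2d share was 64.01% and the Calm3 share 70.8%. With counts split over transcripts, an alternative chosen after seeing the data, the association-domain-only share of Camk2a was 24.8%, the linker with the 60-base and 42-base exons 9.16%, the linker of none 26.7%, the downstream 73-base exon 8.53%, and Camk2a among full-length kinase counts 15.7%. With a pseudocount of 1, the log2 ratio of Camk2d over Camk2a was 1.39 and of Camk2g over Camk2b 2.43. The cause of these moves was not tested, except that counts are not divided by length.

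Genes 2-fold apart between the animals numbered 168, 79 with a pseudocount of 1 and 1773 with no filter on low genes, and genes 2-fold apart between the tables numbered 645 and 346 at a mean of 5 TPM or more. Members 2-fold apart numbered 0 in each of these settings. Of 108 alternatives for single levels and transcripts, 23 moved. Among them, over protein-coding transcripts only, Calm3-201 held 99.7%, Camk2d-202 59.8% and Camk2g-203 40.1% of their genes, and by posterior mean TPM Camk2b-209 held 17.7%. With either animal alone, the log2 ratio of Calm3 over Calm2 lay between 0.37 and 0.40, the Camk2d share of kinase TPM between 54.4% and 57.0%, and the association-domain-only share between 58.2% and 61.5%. No paired analysis was possible because both animals form 1 group. Depth limits the transcripts of Camk2b, which rest on 236 and 268 counts. The Camk2d linker classes have few stretches of sequence that no other annotated Camk2d transcript holds. RNA levels say nothing of the protein or of kinase activity.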

Other observations

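Introns of Camk2d hold 7 unconfirmed gene models on the same strand and the antisense Gm15551. Gm43011, the highest of them, stood at 0.56 and 0.47 TPM from 81 and 69 counts, and the other same-strand models held between 1 and 27 counts. Gm15551 had 0 counts in both libraries. The introns of Camk2a hold the microRNA genes Mir7220 and Mir6982, both with 0 counts.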
